A study of Homo sapiens with 12 samples.

Results

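IGF2 and H19 lie next to each other on human chromosome 11p15.5, and their PAR-CLIP clusters were read in 12 libraries. The cells were HepG2, an established line from a human liver cancer. PAR-CLIP labels RNA with 4-thiouridine, crosslinks it to protein with ultraviolet light, trims it with RNase T1 and sequences the fragments that precipitate with the protein. A cluster is an interval called from such fragments in 1 library. Clusters on the minus strand within IGF2 (ENSG00000167244.22, chr11:2129112-2158391, hg38) or H19 (ENSG00000130600.22, chr11:1995166-2004552) were taken. Genes that overlap IGF2 on that strand, the MIR483 hairpin among them, were counted as IGF2. This gave 385 clusters in IGF2 and 3 in H19, 388 of 102250 in all. The 8 IGF2BP libraries were 2 of IGF2BP1, 2 of IGF2BP2 and 4 of IGF2BP3, of which 2 carry the label bio2. The other 4 libraries were 2 of METTL1 and 2 of WDR4. All were from wildtype HepG2 cells, with no knockdown and no other treatment than the 4-thiouridine. The labels do not say which replicates were separate cultures beyond the plates seeded for each, so the p-values measure the spread between these libraries. The files hold intervals without read counts, so the depth behind a cluster is unknown. The libraries held 4581 to 15701 clusters. No input or mock library was used here, and the level of IGF2 or H19 RNA in these cells was not measured, so more RNA and more binding cannot be told apart. Of 10 hepatocyte genes, 9 had a cluster in at least 1 library and 4 in all 12 (APOB, APOH, FGB and SERPINA1), while TTR had none. Of 8 markers of other cell types, 0 had a cluster. Over all 62696 annotated genes, which include non-coding ones, 18.0% had a cluster and 0.678% had one in all 12 libraries.

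IGF2 encodes insulin-like growth factor 2, a fetal growth factor that is normally expressed from the paternal copy. H19 is a long non-coding RNA expressed from the maternal copy, and both genes share enhancers and an imprinting control region. IGF2 is transcribed from several promoters, so its mRNAs carry different 5′ untranslated leaders ahead of the same coding sequence. The IGF2BP proteins took their name from binding to an IGF2 leader. They are RNA-binding proteins with KH and RRM domains, and the study asked whether they read m7G inside mRNAs. METTL1 is a methyltransferase that makes m7G, and WDR4 is its partner subunit.

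The main IGF2 transcript was 5580 nt long, with a leader exon of 1161 nt (chr11:2138229-2139389), 543 nt of coding sequence with the stop codon, and a long 3′ UTR. The 3′ UTR of all its transcripts together spanned 3875 nt (chr11:2129112-2132986). Clusters of different libraries that overlapped by at least 1 nt were merged into sites, which are numbered here from the 5′ end of IGF2. The core of a site is the stretch covered by the most libraries. The following RNA sequences, read from hg38 on the minus strand and written 5′ to 3′, show at most 30 nt of a core. Capitals mark CAUH, the IGF2BP element, written out CAUA, CAUC or CAUU. The first group came from sites found in all 12 libraries. Site 2 lies in the leader and the others in the 3′ UTR. Some of the printed cores carry CAUH and some do not, and site 32 has it outside its core.
Site 2, chr11:2139144-2139173: ccgccuccucuuCAUCuaccucaacucccc
Site 16, chr11:2132465-2132494: acuccccaccccccucuuucucuucucccu
Site 17, chr11:2132355-2132384: gcacgucgcugcuaccgcCAUCucccuucu
Site 18, chr11:2132268-2132297: ccucacucccuuuucCAUCacuaaaaauca
Site 19, chr11:2132141-2132170: cccccaaaucuuaCAUCucaauuccCAUCc
Site 25, chr11:2130818-2130847: aguccucgggggccgugcacugaugcgggg
Site 32, chr11:2130087-2130116: uuccgcacacuugaggaacccuccccucuc
Site 37, chr11:2129409-2129438: uccccugggccacuaacCAUCcuggcccgg

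The second group shows sites whose libraries set them apart. Site 12 was the main coding site, site 23 had IGF2BP clusters alone, site 27 had no IGF2BP3 cluster, and the H19 site had bio2 clusters alone.
Site 12, chr11:2133037-2133063: guccccugauugcucuacccacccaag
Site 23, chr11:2131055-2131078: cucccCAUAccccaccCAUUcccg
Site 27, chr11:2130503-2130525: uaacaggggggcagugacaaaag
H19 site 2, chr11:1995185-1995213: agcccuggacuCAUCAUCaauaaacacug

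IGF2 carried clusters of all 5 proteins in every library. The IGF2BP1 libraries held 37 and 37 clusters in IGF2, and the IGF2BP2 libraries 34 and 36. The IGF2BP3 libraries held 33 and 31, and the bio2 libraries 17 and 19. The METTL1 libraries held 34 and 38 and the WDR4 libraries 37 and 32. The bio2 libraries were thus the lowest, and the other 10 lay between 31 and 38. Among genes IGF2 ranked from 2 to 6 by number of clusters within a library. Its total of 385 was exceeded only by ENSG00000280441 with 1255 and ENSG00000278996 with 668, both annotated as lncRNAs, and the next protein-coding gene was APOB with 350. Most IGF2 clusters lay in the 3′ UTR. By midpoint, 272 (70.6%) were in the 3′ UTR, 96 (24.9%) in the 5′ UTR, 14 (3.64%) in coding sequence and 3 (0.779%) in introns.

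**Figure D1:**
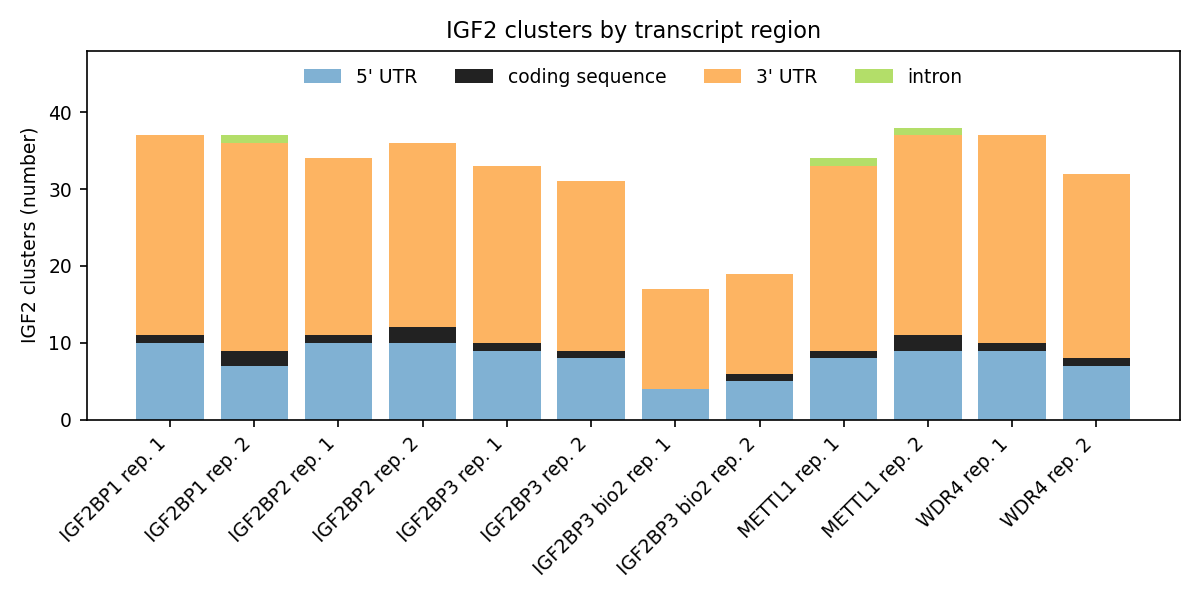
Number of IGF2 clusters in each of the 12 libraries, stacked by the region of the gene that holds the cluster midpoint. The 3′ UTR makes up the largest share in every library, and the 2 bio2 libraries hold 17 and 19 clusters where the other libraries hold 31 to 38.

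The 5′ UTR clusters fell almost wholly in 1 of the alternative leaders. Sites 1 to 7 lay in the 1161-nt first exon of the main transcript, and site 8 in a leader exon of 118 nt nearer to the coding sequence (chr11:2137188-2137305). The annotated 5′ UTR stretches further upstream had no cluster in any library. The 1161-nt leader was covered over 42.1% and 43.9% of its bases in the IGF2BP1 libraries and over 35.6% and 37.4% in the IGF2BP2 libraries. In the IGF2BP3 libraries coverage was 36.2% and 33.5%. It was 13.0% and 18.2% in the bio2 libraries, 39.1% and 37.6% in the METTL1 libraries and 34.0% and 28.5% in the WDR4 libraries. Only the bio2 libraries fell clear of the rest.

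Sites 1 and 2, at the cap-proximal end of this leader, were the leader sites with clusters in all 12 libraries. Site 1 (chr11:2139225-2139384, 160 nt) held 30 clusters with 18 different outlines and a core of 42 nt. Site 2 (chr11:2139079-2139224, 146 nt) directly followed it, with 20 clusters of 14 outlines and a core of 47 nt, the widest core among the sites found in all 12 libraries. Site 3 (chr11:2139008-2139060, 53 nt) was found in 10 libraries, with neither bio2 library. Its commonest outline, 22 nt long, was called in 7 libraries. A stretch of 193 nt without clusters followed, up to site 4 (chr11:2138765-2138814, 50 nt), which METTL1 replicate 1 alone had. Site 5 (chr11:2138687-2138750, 64 nt) was in 8 libraries of all 5 proteins. Site 6 (chr11:2138512-2138635, 124 nt) was in 11, with bio2 replicate 1 missing, and its core held 32.4% U. Site 7 (chr11:2138341-2138389, 49 nt) was in 6 libraries, 5 of IGF2BP proteins and METTL1 replicate 2. Site 8 (chr11:2137199-2137249, 51 nt), in the 118-nt leader, was in both IGF2BP1 libraries, METTL1 replicate 2 and WDR4 replicate 1. Its central 20 nt, a UCC repeat, occurs 724 times in hg38. Reads with more than 10 equally good placements were dropped in the authors' mapping, and whether the reads behind this site reached past the repeat cannot be seen in the intervals.

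Coding clusters were few and sat in 2 places. Site 12 (chr11:2133021-2133068, 48 nt), near the 3′ end of the coding sequence, was found in 11 libraries, with bio2 replicate 1 the exception. In 9 of the 12 libraries it had exactly the same outline, 32 nt at chr11:2133037-2133068. Its core covered codons 156 to 165 of 180, in the part that encodes the E-peptide removed when the hormone matures. Site 11 (chr11:2133539-2133610, 72 nt) was found in IGF2BP1 replicate 2, IGF2BP2 replicate 2 and METTL1 replicate 2, with a core over codons 76 to 84. Together these sites covered 0% (bio2 replicate 1) to 16.6% (METTL1 replicate 2) of the coding bases. The 157 coding nt of exon 2 had no cluster in any library.

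The 2 intronic sites were weakly shared. Site 9 (chr11:2134140-2134162, 23 nt) lay within the MIR483 hairpin (chr11:2134134-2134209), a miRNA precursor hosted by IGF2. IGF2BP1 replicate 2 and METTL1 replicate 2 both had it, with the same 23-nt outline over bases 48 to 70 of the 76-nt hairpin. Its central 20 nt occurs at 2 places in hg38. Site 10 (chr11:2133823-2133868, 46 nt) was called in METTL1 replicate 1 alone.

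The 3′ UTR held 26 sites, of which 9 were in all 12 libraries, 6 in 10 or 11, 8 in 2 to 9 and 3 in 1. A first block of 7 sites lay before the longest empty stretch. Site 13 (chr11:2132793-2132912, 120 nt) was in 11 libraries, with bio2 replicate 1 missing. Site 14 (chr11:2132633-2132755, 123 nt) was in the 10 libraries other than bio2, and in 9 of them its outline was identical at both ends. Site 15 (chr11:2132561-2132595, 35 nt) was in both IGF2BP1 and both WDR4 libraries and in IGF2BP3 replicate 2, and its A-rich centre occurs 7 times in hg38. Sites 16 (chr11:2132456-2132502, 47 nt), 17 (chr11:2132339-2132397, 59 nt), 18 (chr11:2132200-2132315, 116 nt) and 19 (chr11:2132119-2132182, 64 nt) were in all 12 libraries. The printed cores of sites 17, 18 and 19 contain CAUC, which site 19 has at 2 places, whereas site 16 is a pyrimidine run without CAUH and with 33.3% U in its core.

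After site 19 came the longest stretch without a cluster. It ran 777 nt (chr11:2131342-2132118), from 869 to 1645 nt after the stop codon, and no library of any protein had a cluster there. This stretch holds 260 CA dinucleotides and 5.15% U, against 18.3% U over the whole 3′ UTR. PARalyzer calls clusters from T-to-C conversions at crosslinked 4-thiouridine, which replaces U, so RNA poor in U gives few such positions. Whether protein contacts that RNA was not tested. How often the sequence of this stretch occurs in hg38 was not counted, so reads lost in mapping cannot be judged either. Low U did not mark all the empty stretches. The next longest in the 3′ UTR between sites, 192 nt at chr11:2130526-2130717, held 37.5% U. Over the whole 3′ UTR, 2034 nt (52.5%) had no cluster in any library and held 16.3% U. The 968 nt (24.98%) covered in 10 to 12 libraries held 20.7% U. The empty bases include the U-poor 777-nt stretch, so their pooled share does not describe the other empty bases. The other empty stretches of at least 60 nt in the 3′ UTR held 16.2% to 37.5% U.

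**Figure D2:**
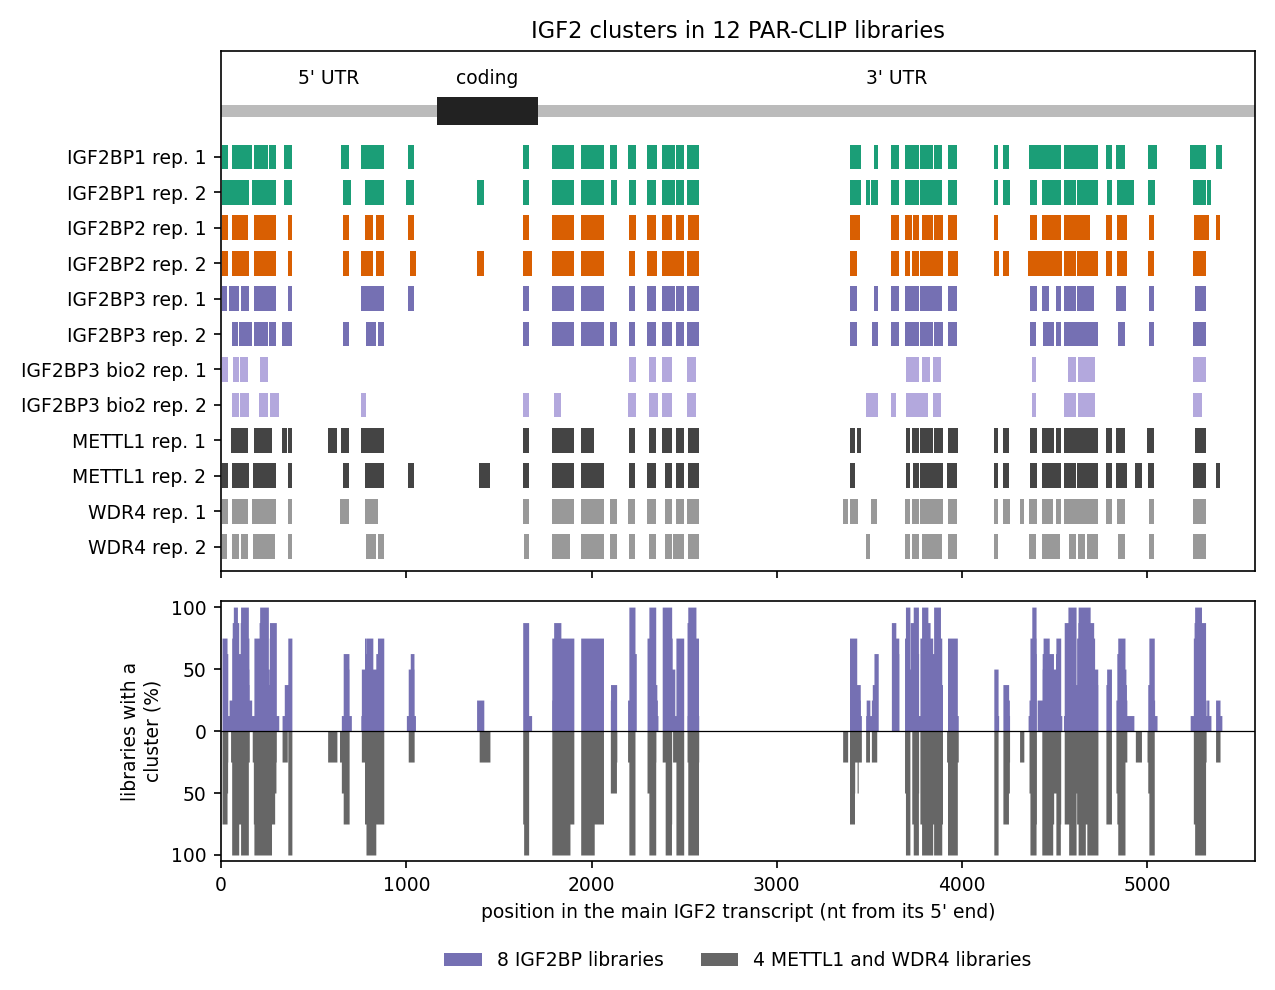
Upper panel, clusters of each library along the main IGF2 transcript, drawn to scale in nt from the 5′ end, with the 5′ UTR and 3′ UTR as thin grey bars and the coding sequence as the thick bar above. Lower panel, percentage of the 8 IGF2BP libraries (upward) and of the 4 METTL1 and WDR4 libraries (downward) with a cluster at each nt. The same blocks appear in both directions, and the 777-nt stretch in the 3′ UTR is empty in every library.

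The second block of the 3′ UTR began with sites that fewer libraries shared. Site 20 (chr11:2131315-2131341, 27 nt) was in WDR4 replicate 1 alone. Site 21 (chr11:2131241-2131304, 64 nt) was in 9 libraries, with both bio2 libraries and WDR4 replicate 2 missing. Site 22 (chr11:2131150-2131217, 68 nt) was in 7 libraries, those of IGF2BP1, IGF2BP3 and WDR4 together with bio2 replicate 2. Site 23 (chr11:2131038-2131078, 41 nt) was the only IGF2 site found with IGF2BP proteins alone. It was in 7 of the 8 IGF2BP libraries, with bio2 replicate 1 missing, and in 0 of the 4 METTL1 and WDR4 libraries. Its core holds both CAUA and CAUU. By Fisher's exact test its p was 0.0101, and 0.170 after Benjamini-Hochberg adjustment over the 7846 merged sites tested. The difference in presence did not pass. With 8 against 4 libraries the test has a smallest possible p, and many of the 7846 sites would have to reach it before any passed. That failure therefore does not decide whether presence differed. Site 23 also met the filter of 4 libraries through IGF2BP libraries only. Of those 7846 sites 594 had an unadjusted p below 0.05 and 0% passed after adjustment. In IGF2, 30 sites were tested, and site 23 was the only one with an unadjusted p below 0.05.

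Further 3′, the clusters became dense again. Site 24 (chr11:2130856-2131007, 152 nt) had 32 clusters of 14 outlines, the most clusters of any IGF2 site, and was in all 12 libraries. Site 25 (chr11:2130803-2130855, 53 nt), which began at the next base and was also in all 12, has no CAUH. Site 26 (chr11:2130718-2130780, 63 nt) was in the 10 libraries other than bio2. Sites 27, 28 and 33 were found with IGF2BP1, IGF2BP2, METTL1 and WDR4 but in none of the 4 IGF2BP3 libraries. Site 27 (chr11:2130500-2130525, 26 nt) was in all 8 of the libraries of those 4 proteins, with the same 23-nt outline in 7 of them. Site 28 (chr11:2130441-2130476, 36 nt) was in 6 and site 33 (chr11:2129891-2129920, 30 nt) in 7. The core of site 27 held 8.70% U. Of the 28 IGF2 sites in 6 or more libraries, these 3 (10.7%) had no IGF2BP3 cluster, near the share over the series, 298 of 4083 sites (7.30%).

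The last part of the 3′ UTR held sites 29 to 38. Site 29 (chr11:2130364-2130386, 23 nt) was in WDR4 replicate 1 alone. Site 30 (chr11:2130296-2130340, 45 nt) was in all 12 libraries, with the narrowest core of those sites at 23 nt. Site 31 (chr11:2130159-2130291, 133 nt) was in the 10 libraries other than bio2. Site 32 (chr11:2129964-2130149, 186 nt) was the widest site of IGF2 and was in all 12, with 21 clusters. The outline of 182 nt called in 4 libraries there was the widest IGF2 cluster. Sites 34 (chr11:2129770-2129866, 97 nt) and 36 (chr11:2129645-2129698, 54 nt) were again in the 10 libraries other than bio2. Between them, site 35 (chr11:2129729-2129761, 33 nt) was in METTL1 replicate 2 alone. Site 37 (chr11:2129354-2129465, 112 nt) was in all 12, with a core 3546 to 3582 nt after the stop codon. Site 38 (chr11:2129295-2129328, 34 nt), the most 3′ site, was in IGF2BP1 replicate 1, IGF2BP2 replicate 1 and METTL1 replicate 2. The final 183 nt of the 3′ UTR had no cluster.

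IGF2 sites were thus shared between libraries and proteins far more than merged sites in general, as a description of these counts. Of the 38 IGF2 sites 11 (28.9%) were in all 12 libraries, against 0.591% of the 45174 merged sites of the series. Clusters of all 5 proteins were found at 22 sites (57.9%), against 3.08%. A single library accounted for 5 sites (13.2%), against 60.6%. IGF2BP libraries alone accounted for 1 site (2.63%), against 43.1%. METTL1 and WDR4 libraries alone had 5 sites (13.2%), each in 1 library, against 42.7%. Without the bio2 libraries and merged anew, 21 of 40 IGF2 sites were in every one of the other 10 libraries. In the merging over 12 libraries 20 sites had all 10, of which 6 (30%) had neither bio2 library (sites 3, 14, 26, 31, 34 and 36). Over the series 564 sites (1.25%) had all 10, of which 258 (45.7%) had neither bio2 library, so the absence of widely shared sites from bio2 was not particular to IGF2. No IGF2 site was found in bio2 libraries alone. The bio2 libraries covered less of most stretches of the 3′ UTR. Over the 500 nt after the stop codon they covered 1.80% and 11% of bases, where the other 10 libraries covered 40.2% to 58.6%. From 3001 to 3500 nt after the stop codon they covered 1.00% each and the others 16.6% to 36.0%. From 3501 nt on, bio2 replicate 1 with 17.6% lay within the range of the others, 15.7% to 31.2%, and bio2 replicate 2 with 11.73% below it. Each bio2 library held about as many clusters in all as the other IGF2BP3 libraries, 6457 and 6009 against 6467 and 6831.

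Cluster outlines recurred at the nucleotide. The 385 clusters had 204 different outlines, of which 128 were called in 1 library and 10 in at least 6. They used 117 different 5′ ends and 134 different 3′ ends. A G stood just before 374 of the clusters (97.1%), and 326 (84.7%) ended in G, the base after which RNase T1 cuts. Starts were read so as to place G there, so the first share is not a separate result. Over all clusters of a library, G stood just before 74.5% to 94.7%, and 53.0% to 80.6% ended in G. Of the 38 sites 35 had a central 20 nt that occurs once in hg38, and the exceptions were sites 8, 9 and 15.

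The overlap between libraries was next compared in bases, as the bases covered in both libraries over those covered in either. In IGF2, replicates of IGF2BP1 shared 82.5%, those of IGF2BP2 81.8% and those of IGF2BP3 80.9%. The METTL1 replicates shared 72.2%, the WDR4 replicates 72.6% and the bio2 replicates 62.9%. Pairs of METTL1 with WDR4 libraries shared 72.0% on average. Over the 45 pairs among the 10 libraries other than bio2, the share lay between 66.6% and 82.5%, with a mean of 75.0%. Over all clusters of the same pairs it lay between 12.8% and 57.5%. Bio2 libraries shared 32.0% to 47.0% of IGF2 bases with the other 10. Pairs of the same protein shared 62.2% of IGF2 bases and pairs of different proteins 63.9%, a difference of -1.70 percentage points (exact p = 0.445, one-sided, from the 51975 ways to partition the 12 libraries). Over all clusters the same comparison gave 32.0% against 17.3%, a difference of 14.7 points (exact p = 0.00185). This IGF2 result rested on the bio2 libraries, which are IGF2BP3 libraries. Without them, same-protein pairs shared 3.41 points more of IGF2 than other pairs (exact p = 0.00423).

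**Figure D3:**
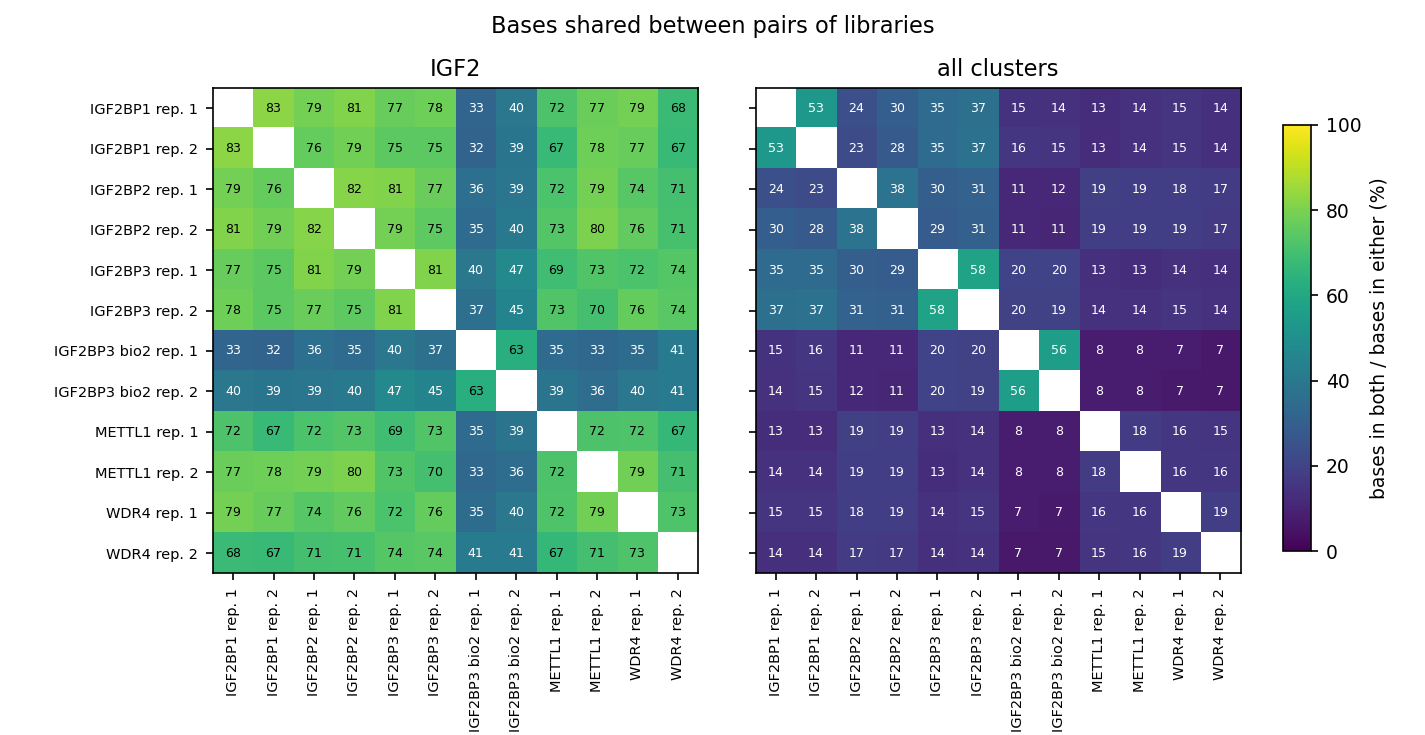
Bases covered in both libraries of a pair as a percentage of bases covered in either, for IGF2 (left) and for all clusters (right), on the same colour scale from 0 to 100. Among the 10 libraries other than bio2 the IGF2 values lie between 66.6% and 82.5%, with the highest value between the IGF2BP1 replicates. Over all clusters the values lie between 12.8% and 57.5% and reach their highest value between the IGF2BP3 replicates.

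The 8 IGF2BP libraries and the 4 METTL1 and WDR4 libraries did not differ detectably in how much of IGF2 was clustered. The 2 groups held 30.5 ± 8 (SD, n = 8) and 35.3 ± 2.75 (SD, n = 4) clusters (two-sided exact permutation test over 495 assignments, p = 0.275). Scaled to the library, these were 4.07 ± 1.74 and 4.2 ± 0.733 IGF2 clusters per 1000 clusters (exact p = 0.915). IGF2BP2 replicate 1, the smallest library, had the highest value with 7.42, and IGF2BP1 replicate 2, the largest, the lowest with 2.36. Clusters covered 31.3% ± 9.72 of the 3′ UTR in IGF2BP libraries and 33.2% ± 2.82 in METTL1 and WDR4 libraries (exact p = 0.766). Coding coverage was 7.32% ± 4.97 and 8.33% ± 5.51 (exact p = 0.802). In the 5′ UTR 390 ± 144 and 425 ± 64.9 nt were covered (exact p = 0.669). The 3′ UTR share of clusters was 70.4% ± 3.16 and 71.7% ± 2.86 (exact p = 0.491). None of these 6 measures passed, and after adjustment over the 8 measures compared their p-values were at least 0.733.

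Cluster width differed between the groups. The median IGF2 cluster was 44, 47, 42.5, 45.5, 45, 47, 44 and 48 nt wide in the IGF2BP libraries, in the order IGF2BP1, IGF2BP2, IGF2BP3 and bio2. It was 43 and 35.5 nt in the METTL1 libraries and 40 and 38.5 nt in the WDR4 libraries. All IGF2BP libraries but IGF2BP2 replicate 1 lay above every METTL1 and WDR4 library. The mean was 45.4 ± 1.87 nt (SD, n = 8) in IGF2BP and 39.3 ± 3.12 nt (SD, n = 4) in METTL1 and WDR4 libraries, which differ by 6.13 nt (two-sided exact permutation p = 0.00404, 0.0323 after Benjamini-Hochberg adjustment over 8 measures, the smallest possible p being 0.00202). Among clusters no narrower than the median of their library, the difference was -1.81 nt (exact p = 0.699). The adjusted p was 0.0970 without METTL1 replicate 2, WDR4 replicate 1 or WDR4 replicate 2. With the replicate block it was 0.0533. With the 5 proteins as units, 3 against 2, the difference was 5.92 nt with p = 0.1, the smallest that this exact test allows.

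Compared with the other clusters of the same library, IGF2 clusters were wider in 9 of 12 libraries, by 3.58 ± 5.03 nt on average (SD, n = 12, two-sided exact sign-flip permutation test, p = 0.0337). The difference was largest in the bio2 libraries, at 10 and 13 nt, and was -5.5 nt in METTL1 replicate 2. Without the bio2 libraries it was 2 nt (exact p = 0.135). The call was also lost without IGF2BP1 replicate 2, IGF2BP2 replicate 2 or any 1 of the IGF2BP3 libraries (exact p up to 0.0674). Against only the 3′ UTR clusters of other genes in the same library, all IGF2 clusters were wider by 5.33 nt (exact sign-flip p = 0.0083).

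CAUH was found in a larger share of the IGF2 clusters in the IGF2BP libraries than in the METTL1 and WDR4 libraries. With clusters widened by 10 nt on both sides, 51.4% and 51.4% of the IGF2BP1 clusters contained it, 47.1% and 47.2% of the IGF2BP2 clusters, 51.5% and 45.2% of the IGF2BP3 clusters and 58.8% and 63.2% of the bio2 clusters. In METTL1 libraries it was in 41.2% and 44.7%, and in WDR4 libraries in 40.5% and 40.6%. The groups did not overlap, although IGF2BP3 replicate 2 and METTL1 replicate 2 were close. The mean was 52.0% ± 6.17 (SD, n = 8) against 41.8% ± 2.00 (SD, n = 4), which differ by 10.2 percentage points (two-sided exact permutation p = 0.00808, adjusted p = 0.0323). Leaving out any 1 of the METTL1 and WDR4 libraries, either IGF2BP1 library or IGF2BP3 replicate 1 gave adjusted p-values between 0.0727 and 0.121, and the replicate block 0.0533. With CA dinucleotides per 100 nt in place of CAUH the adjusted p was 0.356. With proteins as units the exact permutation p was 0.2, where the smallest possible is 0.1, so that setting could not pass.

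IGF2 stood below the rest of the IGF2BP libraries in this element. Over all clusters of a library CAUH was in 60.5% and 62.5% for IGF2BP1, 51.7% and 49.7% for IGF2BP2, 73.8% and 72.1% for IGF2BP3 and 71.4% and 72.2% for bio2. The IGF2 share was lower in each of the 8 libraries, with a difference of -2.44 points in IGF2BP2 replicate 2, the closest to 0, and of -22.2 and -27.0 points in the IGF2BP3 libraries. In METTL1 libraries the IGF2 share was above the library's 37.0% and 38.1%, and in WDR4 libraries it was slightly below 42.2% and 42.9%. Taken as the difference from the library's own share, IGF2 was thus 14.0 points lower in IGF2BP libraries than in METTL1 and WDR4 libraries (exact permutation p = 0.0121, adjusted p = 0.0485), the opposite direction to the shares themselves. That comparison was added after the values had been seen. Of the 38 sites 17 contain CAUH, 8 of the 11 found in all 12 libraries and 9 of the other 27. Sites with a bio2 cluster had it in 11 of 16 cases and sites without in 6 of 22. These counts took the whole merged site, from 23 to 186 nt wide. A wider site has more room for the element, and width was not allowed for.

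**Figure D4:**
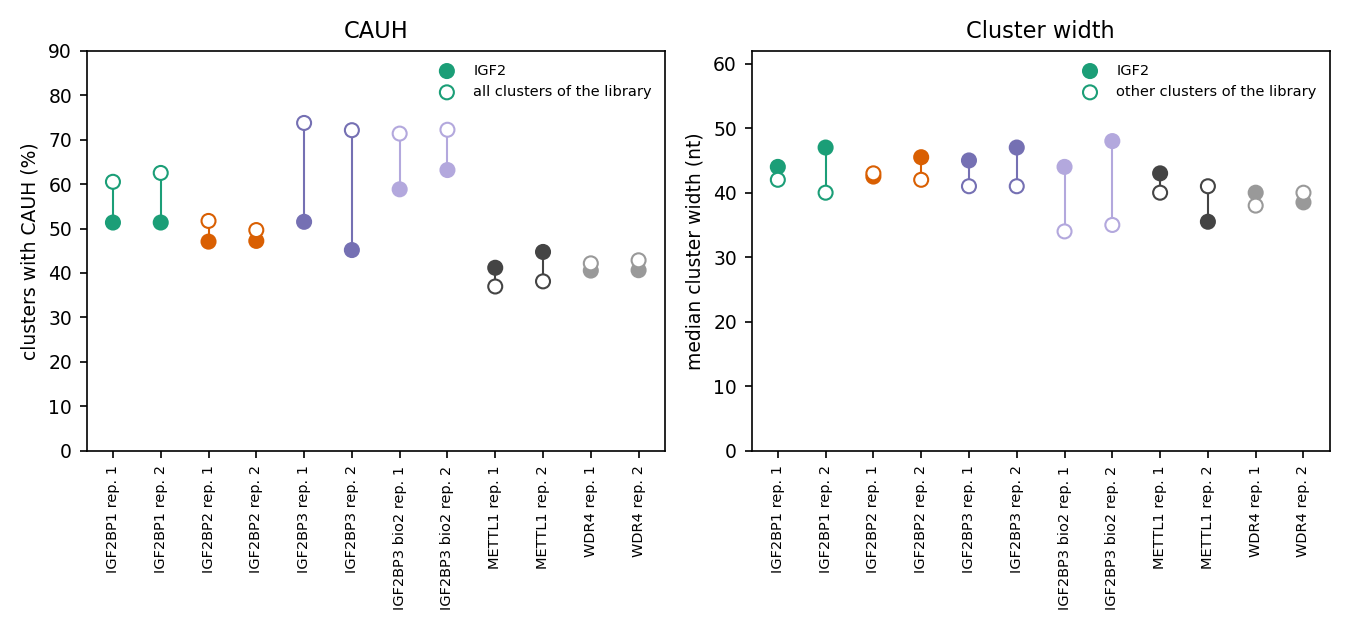
Filled circles give IGF2 and open circles the library, for the percentage of clusters that contain CAUH (left) and the median cluster width in nt (right), with 1 column for each of the 12 libraries and colours for the protein. In every IGF2BP library the filled CAUH circle lies below the open one, with differences down to -27.0 points, while the filled circles of the METTL1 and WDR4 libraries lie within 6.62 points of the open ones.

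H19 had 3 clusters at 2 sites, in 3 of the 12 libraries, and 0 clusters in the other 9. Both bio2 libraries had the same 29-nt cluster at H19 site 2 (chr11:1995185-1995213), near the 3′ end of the transcript. It contains CAUC at 2 overlapping places, directly followed by the sequence AAUAAA, known as a polyadenylation signal. H19 site 1 (chr11:1996702-1996736, 35 nt) was in METTL1 replicate 1 alone and lay outside the MIR675 hairpin (chr11:1996759-1996831), which H19 hosts. The 9387 nt of the H19 gene have a second copy in hg38 on an unlocalized scaffold of chromosome 11, where 9386 bases are identical. Reads from H19 therefore fit both places. The authors' mapping kept reads with up to 10 equally good placements, so such reads were kept, and how cluster calling shared them between the copies is not given in the sources used here. That scaffold copy held 1 further cluster on the H19 strand, 31 nt in IGF2BP2 replicate 2, at the bases that correspond to chr11:1995226-1995256. Its part in the low number of H19 clusters was not tested, and no comparison between groups was made.

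Of 17 other genes of the 11p15.5 region 4 (23.5%) had a cluster, near the 18.0% over all annotated genes, and 0 had clusters in all 12 libraries. These were CTSD with 13 clusters, KCNQ1OT1 with 5, KCNQ1 with 3 and NAP1L4 with 2. IGF2-AS and TH had 0, as did INS, which was counted with the IGF pathway genes and not here. CTSD was the only one with enough clusters to test, and its adjusted p was 0.526.

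Of 22 listed genes of the IGF pathway 11 (50%) had a cluster, against 18.0% of all annotated genes, and 1 (4.55%) had clusters in all 12 libraries, against 0.678%. The listed genes all code for protein, whereas the annotated genes include non-coding ones, so the shares are not of like sets. The list also holds the mRNAs of IGF2BP1, IGF2BP2 and IGF2BP3. That gene was IGF2BP2, with 56 clusters, while IGF2BP1 mRNA had the most of the list with 70. Among receptors, IGF1R, the main signalling receptor for IGF2, had 27 clusters and IGF2R, which clears IGF2, had 7. Among binding proteins IGFBP1 and IGFBP4 had 18 each, and IGFBP2, IGFBP3, IGFBP5, IGFBP6, IGFBP7 and IGFALS had 0. Of 9 tested 1 was higher in IGF2BP libraries and 1 lower. Over all 2193 genes tested, with clusters per 1000 and at least 12 clusters, 5.02% passed. STC2 is a stanniocalcin that inhibits the protease PAPPA and so the release of IGF from its binding proteins. It had 0.172 ± 0.0304 clusters per 1000 in the 8 IGF2BP libraries and 0 in the 4 METTL1 and WDR4 libraries (exact permutation p = 0.00202, adjusted p = 0.0403). All 12 of its clusters came from IGF2BP libraries, so it met the filter only through the group where it was high. Its p therefore gives no separate support for a difference. IGF2BP3 mRNA had 0.0609 ± 0.0866 and 0.478 ± 0.0873 (exact permutation p = 0.00202, adjusted p = 0.0403), so that it was lower in the IGF2BP libraries. It had 4 clusters in each METTL1 and WDR4 library and 0 to 3 in each IGF2BP library. IGF2BP3 mRNA thus met the filter of 12 clusters only through the METTL1 and WDR4 libraries, and its p gives no separate support either. For both genes the p was the smallest that the exact test allows. Both calls were lost with clusters not scaled, with no filter on low numbers, where more genes are tested, and without the bio2 libraries, where fewer assignments of the libraries limit the smallest p. In each of these settings 0 genes passed. IGF2 itself had an adjusted p of 0.958.

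By Spearman's rank correlation of clusters per 1000 over the 12 libraries, the genes most like IGF2 among 204 compared were MT-CYB (rho = 0.804), KMT2D (0.769), the pseudogene ENSG00000230021 (0.769), TLK1 (0.755) and MDM2 (0.734). These values describe 12 points that share the library totals. MT-CYB had 8 to 11 clusters in each library, so its scaled values follow the library totals.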

How the data were processed

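PAR-CLIP clusters of 12 HepG2 libraries were used. The authors filtered and clipped reads, collapsed identical ones with the FASTX toolkit, used Bowtie for mapping (reads with more than 10 equally good placements were dropped) and PARalyzer for cluster calling. The build, per the submitters' processing notes, was hg38. Tool versions and PARalyzer settings were not given in the sources used here. The deposited values are of another kind than counts, as each line is the interval of 1 cluster with no score or count. Depth per cluster is unknown. Starts were read as counted from 1 and ends as included, since this placed G just before the cluster as RNase T1 cutting does.

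Groups came from the sample titles. Clusters were assigned by an overlap of at least 1 nt and classed by midpoint against GENCODE release 44, coding sequence before 3′ UTR, 5′ UTR and other exons. Two-sided exact permutation tests over libraries compared 8 measures with Benjamini-Hochberg adjustment (threshold 0.05). Sites were tested by Fisher's exact test where at least 4 libraries had them, and genes by the exact permutation test from 12 clusters on. For genes most like IGF2, a mean of at least 3 clusters was required.

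Members, gene lists and tests were chosen with earlier results of these data known. All 38 sites are described. The rule named sites in all 12 libraries (the 6 widest cores, ties in 5′ to 3′ order: sites 1, 2, 17, 19, 25 and 32), those of the IGF2BP libraries alone, leader and coding sites and H19. Sequences are printed for part of them, and sites 16, 18, 27 and 37 were added after their values were seen. Alternatives left out each library or both bio2 libraries, took proteins as units, used a replicate block, changed cluster width, overlap, gene span, transcripts or motif. The files hold no score, so wide clusters stood in for strict ones. Replicate numbers were checked by 15 correlations across sites (-0.0173 to 0.0217) and were not taken as pairs. The code passed 9 of 9 checks on simulated data. Python 3.11.15, NumPy 2.4.6 and SciPy 1.17.1 were used.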

Additional observations from a re-analysis of the deposited data

Results flagged for a closer look

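In IGF2 3 values stood apart from the other libraries of their group by Dixon's ratio, out of 24 combinations of group and measure, and chance marks about 1 in 20. METTL1 replicate 2 covered 16.6% of the coding bases, above the other METTL1 and WDR4 libraries, and is the only one of these with site 11. The CAUH share of the same library, 44.7%, also lay above the other 3. Among the IGF2BP3 libraries bio2 replicate 1 covered 0% of the coding bases, where the other 3 each covered 5.89%.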

How the results depend on the processing

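Differences are IGF2BP minus METTL1 and WDR4, with p-values of exact permutation tests adjusted over 8 measures. Width and CAUH kept their direction with each library left out (4.88 to 7.38 nt and 8.59 to 11.2 points), but adjusted p reached 0.0970 and 0.121. Without METTL1 replicate 2, WDR4 replicate 1 or WDR4 replicate 2 neither passed. Without METTL1 replicate 1, IGF2BP1 replicate 1, IGF2BP1 replicate 2 or IGF2BP3 replicate 1 CAUH did not pass. With the replicate block both had an adjusted p of 0.0533 (6.13 nt and 10.2 points), and no other call changed. With proteins as units width was 5.92 nt, CAUH 9.28 points and 3′ UTR coverage 0.344 points. None could pass there, as the smallest p that the exact test allows is 0.1. Among clusters no narrower than their library's median, the differences were 0.375 clusters, 0.594 per 1000, 2.00 points of 3′ UTR coverage, 5.75 points of 3′ UTR share, -1.81 nt of width and 11.9 points of CAUH (exact test, adjusted p = 0.129). CA per 100 nt differed by 0.195. As a difference from the library's own value, chosen after seeing the data, width differed by 6.13 nt (exact test, adjusted p = 0.162) and CAUH by -14.0 points. Without bio2, IGF2 clusters per 1000 differed by 0.265, 3′ UTR coverage by 3.08 points, coding coverage by 0.445 points and 5′ UTR coverage by 34.5 nt, and none passed. With each library left out, the differences spanned -5.83 to -2.82 clusters, -0.605 to 0.187 per 1000, -3.18 to 0.536 points of 3′ UTR coverage, -2.26 to 1.73 of coding coverage, -66.5 to -1 nt of 5′ UTR coverage and -2.46 to -0.272 points of 3′ UTR share. These differences were not called in any setting, so a change of sign carries no direction.

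Same-protein pairs differed from other pairs in IGF2 by -3.39 to 3.49 points with each library left out, and by 3.41 without bio2. Width against the same library spanned 2.73 to 4.41 nt (exact p up to 0.0674, past 0.05 without IGF2BP1 replicate 2, IGF2BP2 replicate 2 or any 1 of the 4 IGF2BP3 libraries) and was 2 nt without bio2. Against only the 3′ UTR clusters of other genes it was 5.33 nt. Without bio2, 21 sites were in every library. Fisher's test called 0 sites in every setting, with 466 to 1464 at an unadjusted p under 0.05. The small number of libraries bounds its smallest p, so this does not decide whether presence differed. By the exact permutation test 110 genes were called, and 0 with no filter (1243 at an unadjusted p under 0.05), unscaled (342) or without bio2 (574). The causes were not tested. Depth per cluster is unknown, which limits every statement about an absent cluster.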
